A study of Mus musculus with 4 samples.

Results

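The Rab genes encode the largest branch of the Ras-like small GTPases, and their transcripts were described on 4 one-colour Affymetrix arrays of mouse small intestinal epithelial cells. Members were all genes whose platform symbol was Rab, a number and at most 1 lower-case letter, taken from probe sets named for that gene alone. The rule found 59 genes on 132 probe sets, out of 18193 genes with such a probe set, and each gene was read from the probe set with the highest mean over the 4 arrays. A mean of at least 0.983, the median of such means over all probe sets, was required for testing. It kept 48 of the 59 Rab genes and 11326 genes in all.

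The labels give 2 arrays as AP-1B-/-, the genotype of mice without AP-1B, and 2 as AP-1B+/-, the heterozygous genotype with 1 disrupted copy, but the targeted gene went against the labels of 2 arrays, as given below. All were C57BL/6J mice aged 10 weeks, healthy and free of specific pathogens, whose epithelium was released with EDTA and collected under a stereomicroscope. No wild-type array was analysed here, and the deleted stretch of the gene, the tissues in which it is deleted, and the number of animals behind each array are not stated in the labels. The p-values therefore take in no more than the spread among these 4 samples, and part of that spread may be technical. By the Xist signals given below, the 2 arrays of each label also differed in sex pattern.

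A Rab switches between a GDP-bound form in the cytosol and a GTP-bound form on the membrane of one organelle. Guanine nucleotide exchange factors (GEFs) load it with GTP, GTPase-activating proteins (GAPs) make it hydrolyse the GTP, GDI proteins extract it from the membrane, and effectors such as tethers and motors act only on the GTP-bound form. In absorptive enterocytes, Rab8 and Rab11 proteins work with the motor myosin Vb to deliver digestive enzymes and transporters to the brush border. AP-1B, whose mu1B subunit is encoded by Ap1m2, is the epithelial clathrin adaptor that sorts receptors to the basolateral side from the same Golgi and recycling endosome membranes.

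Signals are multiples of the array median and are given below in the order of replicate 1 and then 2 within each label. Ap1m2 (the only probe set) had 2.49 and 22.2 on the arrays labelled AP-1B-/-, against 19.9 and 4.33 on those labelled AP-1B+/-. The signal of AP-1B-/- 2 was 5.14 times that of AP-1B+/- 2, so the targeted gene went against the labels of these arrays, unless its probes lie outside the removed part. Every direction below follows the labels. Upper quartiles (75th percentile) were 5.57 and 4.27 for the arrays labelled AP-1B-/- and 4.13 and 5.54 for those labelled AP-1B+/-, so quantile-normalized values are set beside the deposited ones. All 17 measured enterocyte markers were kept, with summed signals of 4840 and 4440 on the arrays labelled AP-1B-/- and 5310 and 5030 on those labelled AP-1B+/-. Those sums are carried by a few bright genes. On AP-1B-/- 1, 7 of the 17 were at their lowest, among them Lct and Anpep, and 5 at their highest, among them Fabp1 and Alpi. On AP-1B-/- 2, 8 were at their lowest and 0 at their highest. Lct, intestinal lactase, had 3.97 and 237 on the arrays labelled AP-1B-/-, against 312 and 82.3 on those labelled AP-1B+/-, and Anpep, aminopeptidase N, had 46.7 and 190.3 against 203 and 137. The 14 measured proliferation markers summed to 590 and 189 under the AP-1B-/- label and to 177 and 291 under the AP-1B+/- label, and the 11 T cell markers to 13.5 and 289 against 470 and 94.5. The array labelled AP-1B-/- 1 stood apart, with 13 of 13 kept proliferation markers at their highest and 9 of 9 kept T cell markers at their lowest. Xist had 0.070 and 60.1 on the arrays labelled AP-1B-/-, against 0.349 and 30.3 on those labelled AP-1B+/-, so that replicate 1 of each label had the male and replicate 2 the female pattern. In epithelium isolated in bulk, fewer cells of a type and less RNA per cell cannot be told apart.

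No Rab gene passed the test between the labels. By limma with Benjamini-Hochberg adjustment over 22519 probe sets, 0 of 48 kept Rab genes were called (lowest adjusted p = 0.999868), where 0.0% of all 11326 genes were called. At an unadjusted p under 0.05 there was 1 Rab gene, Rab3b, beside 0.777% of all genes and 0.755% of all probe sets. Rab3b passed the filter only through the arrays labelled AP-1B+/-, so nothing is read from that count. With 2 arrays a label, the smallest p that an exact two-sided permutation test can give is 0.333, so none was run. By the sign of the log2 difference, used for all counts of higher and lower genes, 32 of the 48 were lower and 16 higher under the AP-1B-/- label. Their median log2 difference was -0.06, against a median of 0.00 over all kept genes, of which 49.5% were lower. That balance moved with single arrays: the median was -0.26 without AP-1B-/- 1 and 0.08 without AP-1B-/- 2, and -0.40 without AP-1B+/- 1 and 0.21 without AP-1B+/- 2. After quantile normalization it stayed between -0.16 and -0.02 with 1 array left out. For 7 Rab genes (14.6%) both arrays labelled AP-1B-/- lay below both labelled AP-1B+/-, and for 0 both lay above. Over all kept genes, 10.9% had the first order and 5.51% the second. After quantile normalization 7 Rab genes were lower without overlap, beside 11.0% of all genes, and 2 were higher, beside 11.8%. For 37 of 48 Rab genes (77.1%) the gap between the 2 arrays of each label exceeded the difference between the labels, as it did for 62.7% of all kept genes. A gap between single arrays tends to be wider than a difference between means of 2. These shares are also on deposited values, where AP-1B-/- 1 and AP-1B+/- 2 had the higher upper quartiles, so they are a description only.

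**Figure D1:**
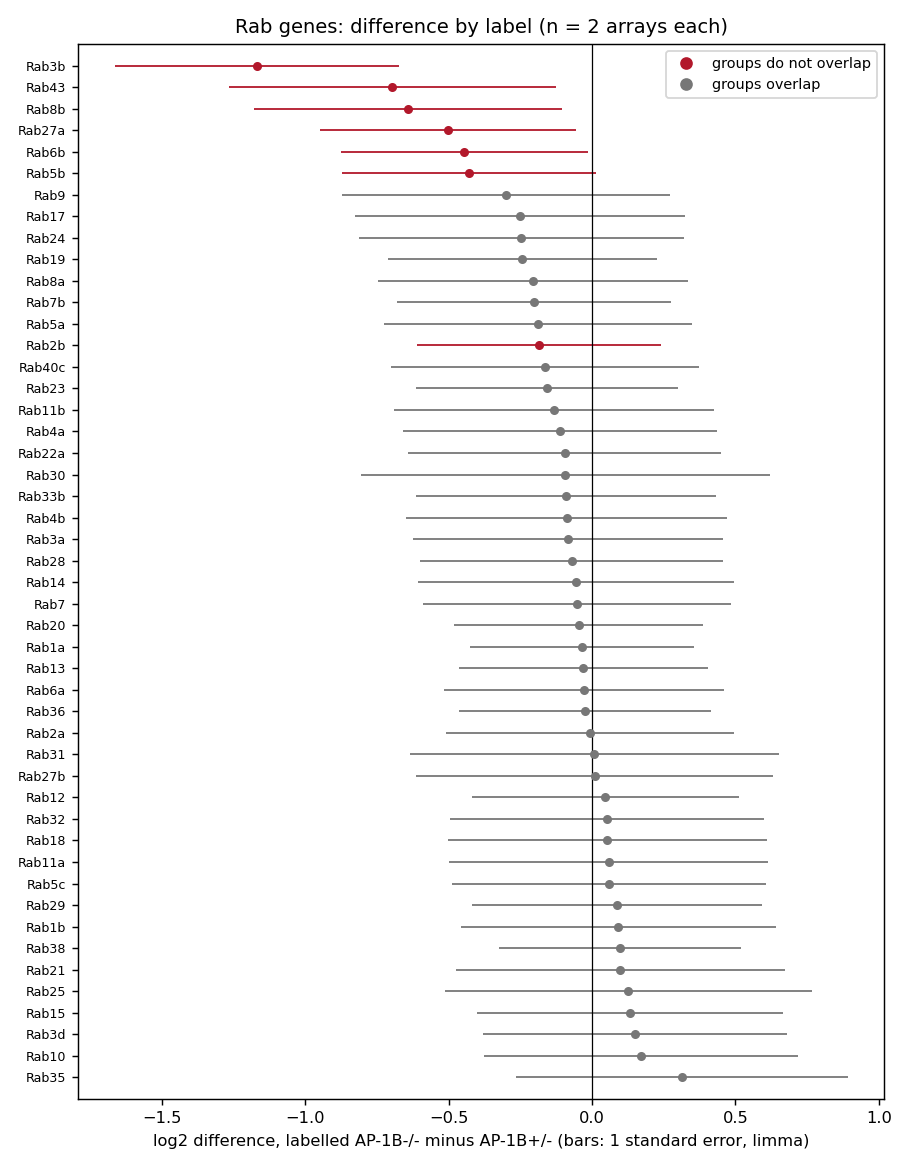
log2 difference of each kept Rab gene, arrays labelled AP-1B-/- minus those labelled AP-1B+/- (n = 2 each), on the log2(signal + 0.321) scale; bars are 1 standard error from limma and red points mark genes whose groups do not overlap. The differences run from -1.17 for Rab3b to 0.31 for Rab35, and all 7 red points lie below 0.

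The pair of arrays with the fewest Rab genes apart carried different labels, on deposited and on quantile-normalized values. The 2 highest deposited signals were on AP-1B-/- 1 and AP-1B+/- 2 for 33 of 48 Rab genes (68.8%), an order shared by 56.7% of all kept genes. After quantile normalization the same order held for 15 Rab genes (31.2%), against 27.8% of all genes. The share with that order thus depended on the scaling. AP-1B-/- 1 and AP-1B+/- 2 were also the arrays with the lower Ap1m2 signals, 2.49 and 4.33. AP-1B-/- 2 had 22.2 and AP-1B+/- 1 had 19.9. The part of the targeted gene in that order was not tested. On deposited values, 15 of 48 Rab genes were at least 1.5-fold apart between AP-1B-/- 1 and AP-1B-/- 2, where 48.9% of all kept genes were. Between AP-1B+/- 1 and AP-1B+/- 2 there were 23, beside 43.9% of all genes. Across the labels there were 17 between AP-1B-/- 1 and AP-1B+/- 1 (51.6% of all genes) and 8 between AP-1B-/- 1 and AP-1B+/- 2 (29.0%). The array labelled AP-1B-/- 2 gave 2 against AP-1B+/- 1 (11.4%) and 18 against AP-1B+/- 2 (38.0%). AP-1B-/- 2 and AP-1B+/- 1, which carry different labels, were thus the pair with the fewest Rab genes apart. After quantile normalization the counts were 14 between the arrays labelled AP-1B-/- (39.6%) and 4 between those labelled AP-1B+/- (22.0%). Across the labels AP-1B-/- 1 then gave 15 against AP-1B+/- 1 (40.7%) and 8 against AP-1B+/- 2 (27.3%), and AP-1B-/- 2 gave 2 (12.9%) and 7 (19.4%). As a share of 48, each of these 12 Rab counts but that of the AP-1B+/- pair on deposited values, 47.9%, was below that of all kept genes. The median log2 range over the 4 arrays was 0.71 for Rab genes and 0.86 for all kept genes, and after quantile normalization it was 0.51 and 0.68. After that normalization 16 of 48 Rab genes (33.3%) were highest on AP-1B+/- 2, against 18.8% of all genes, and 3 (6.25%) were lowest there, against 16.2%.

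**Figure D2:**
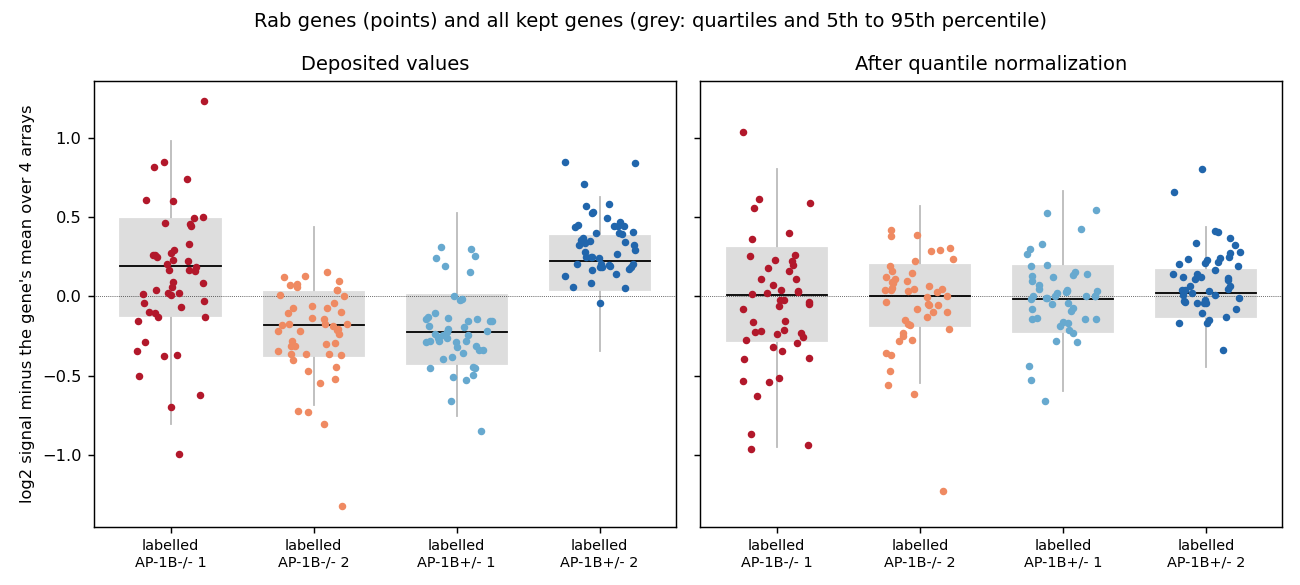
Each point is 1 kept Rab gene, as its log2 signal on an array minus its mean over the 4 arrays; grey boxes give the quartiles, black lines the median and thin lines the 5th to 95th percentile of all 11326 kept genes. On deposited values the Rab medians are 0.13 and -0.20 on AP-1B-/- 1 and 2, and -0.24 and 0.33 on AP-1B+/- 1 and 2; after quantile normalization the 4 medians lie between -0.04 and 0.11.

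Rabs of surface delivery and recycling were measured for all 14 members, and all 14 were kept. Their median log2 difference was -0.04, with 8 lower and 6 higher. The brush border pair Rab8a and Rab8b differed in pattern. Rab8a, whose loss in mouse intestine sends apical enzymes to lysosomes, had 55.5 and 47.4 on the arrays labelled AP-1B-/-, against 45.1 and 77.8 on those labelled AP-1B+/-. Its labels overlapped, and AP-1B+/- 2 was the highest array. Rab8b, its closest relative, had 6.30 and 10.9 under the AP-1B-/- label and 12.4 and 13.8 under the AP-1B+/- label. Both arrays labelled AP-1B-/- were below both labelled AP-1B+/-, with means of 8.60 ± 3.25 and 13.1 ± 0.999 (SD, n = 2 each) and a log2 difference of -0.64, with 0.54 as its standard error (SE), and adjusted p = 0.999868 by limma. After quantile normalization Rab8b had 5.46 and 13.2 under the AP-1B-/- label and 15.6 and 11.7 under the AP-1B+/- label, so that AP-1B-/- 2 lay above AP-1B+/- 2 and the groups overlapped. The log2 difference was -0.26 without AP-1B-/- 1 and -1.02 without AP-1B-/- 2. A second kept probe set of Rab8a had 2.81 and 3.10 under the AP-1B-/- label, against 2.72 and 1.66 under the AP-1B+/- label, the opposite direction to the one used.

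The Rab11 group directs the apical recycling endosome. Rab11a had 122 and 63.0 on the arrays labelled AP-1B-/-, against 59.5 and 119 on those labelled AP-1B+/-. AP-1B-/- 1 and AP-1B+/- 2 were thus about 2-fold above the other array of their label, at 1.94 and 2.00 times, and still 1.36 and 1.41 times after quantile normalization. The second kept Rab11a probe set had the same 2 arrays highest. Rab11b, nearly identical in its GTPase domain, had 25.05 and 34.1 under the AP-1B-/- label and 26.5 and 38.8 under the AP-1B+/- label. Here AP-1B-/- 1 was the lowest array, at 0.735 times AP-1B-/- 2, while 2 dimmer probe sets of Rab11b had AP-1B-/- 1 and AP-1B+/- 2 highest. Rab25, the epithelium-restricted Rab11 relative, had 70.1 and 23.3 on the arrays labelled AP-1B-/-, against 28.3 and 48.5 on those labelled AP-1B+/-. It was highest on AP-1B-/- 1, at 3.01 times AP-1B-/- 2 (2.13 times after quantile normalization), and AP-1B+/- 2 was 1.72 times AP-1B+/- 1 (1.14 times). Its log2 difference by label was 0.13 (SE 0.64). The proliferation markers were also highest on AP-1B-/- 1, and their part in the Rab25 values was not tested.

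Rab17, another epithelial Rab, tied to transcytosis in polarised cells, had 20.9 and 29.6 under the AP-1B-/- label and 22.3 and 39.6 under the AP-1B+/- label. It was lowest on AP-1B-/- 1, at 0.705 times AP-1B-/- 2 (0.492 times after quantile normalization), and both of its probe sets had AP-1B-/- 2 and AP-1B+/- 2 highest. Rab10, which acts in basolateral delivery in dog kidney cells, had 32.4 and 24.9 on the arrays labelled AP-1B-/-, against 24.4 and 26.0 on those labelled AP-1B+/-. These 4 signals lay within 1.33-fold of each other, but its dimmer kept probe sets spanned more. The brighter of those had 28.3 and 16.5 under the AP-1B-/- label and 17.1 and 27.3 under the AP-1B+/- label. All 3 kept Rab10 probe sets had AP-1B-/- 1 and AP-1B+/- 2 highest, and 2 of the 3 shared a sign by label. Rab13, which takes part in tight junction assembly, had 2.68 and 1.76 under the AP-1B-/- label and 1.95 and 2.55 under the AP-1B+/- label. Rab14, which links the Golgi with endosomes, had 113 and 56.7 on the arrays labelled AP-1B-/-, against 62.6 and 111 on those labelled AP-1B+/-. Of its 6 kept probe sets, 4 shared the order with AP-1B-/- 1 and AP-1B+/- 2 highest.

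Among the recycling Rabs, Rab4a, of the fast recycling route from early endosomes, had 26.3 and 30.1 under the AP-1B-/- label and 26.2 and 35.2 under the AP-1B+/- label. Its paralog Rab4b had 17.9 and 14.8 on the arrays labelled AP-1B-/-, against 13.5 and 22.3 on those labelled AP-1B+/-. Both were highest on AP-1B+/- 2. Rab35, which acts in fast recycling and cytokinesis, had 21.5 and 11.3 under the AP-1B-/- label and 9.75 and 16.1 under the AP-1B+/- label. Its log2 difference of 0.31 (SE 0.58) was the most positive of the kept Rab genes, and its groups did not overlap after quantile normalization, with 18.4 and 13.7 under the AP-1B-/- label and 12.1 and 13.4 under the AP-1B+/- label. The Rab35 log2 difference was -0.14 without AP-1B-/- 1, 0.77 without AP-1B-/- 2, -0.04 without AP-1B+/- 1 and 0.66 without AP-1B+/- 2 on deposited values. Rab15, of the recycling endosome, had 11.8 and 6.34 on the arrays labelled AP-1B-/-, against 6.45 and 9.56 on those labelled AP-1B+/-. Rab12, which sends transferrin receptor from recycling endosomes to lysosomes, had 1.51 and 1.36 under the AP-1B-/- label and 0.942 and 1.96 under the AP-1B+/- label, with AP-1B+/- 1 lowest at a signal below the array median.

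**Figure D3:**
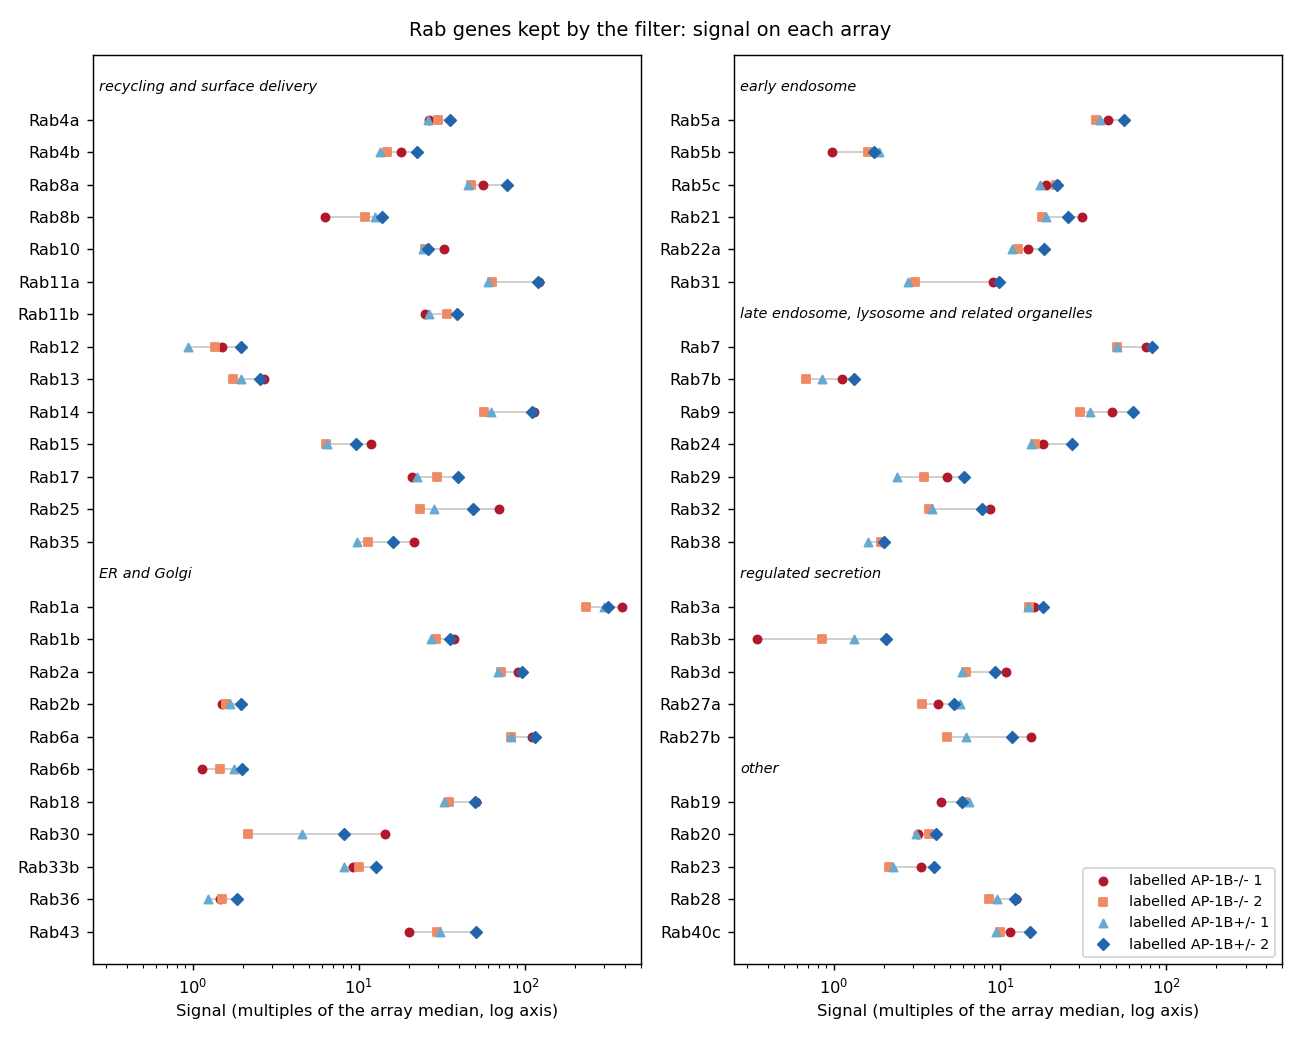
Signal of the 48 kept Rab genes on each array (log axis, multiples of the array median), ordered by role; red and orange are the arrays labelled AP-1B-/- 1 and 2, light and dark blue those labelled AP-1B+/- 1 and 2, and grey lines join the lowest and highest. Rab30, Rab31, Rab25 and Rab27b span the arrays widely with AP-1B-/- 1 and AP-1B+/- 2 on the right, while Rab3b and Rab8b have both arrays labelled AP-1B-/- on the left.

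Of 13 Rabs of the endoplasmic reticulum and Golgi, 11 were kept, 9 lower and 2 higher under the AP-1B-/- label, with a median log2 difference of -0.04. Rab43, a Rab of the Golgi, had 20.0 and 29.5 on the arrays labelled AP-1B-/-, against 30.7 and 51.0 on those labelled AP-1B+/-. Again the arrays labelled AP-1B-/- lay below those labelled AP-1B+/-, with means of 24.7 ± 6.70 and 40.8 ± 14.3 (SD, n = 2 each), and a log2 difference of -0.70 (SE 0.57, limma, adjusted p = 0.999868). The groups also did not overlap after quantile normalization, with 17.1 and 36.0 under the AP-1B-/- label and 38.0 and 41.9 under the AP-1B+/- label, and all 3 kept probe sets had the same sign. With 1 array left out the log2 difference was -0.97 without AP-1B-/- 2 and -0.42 without AP-1B-/- 1, and -1.06 without AP-1B+/- 1 and -0.33 without AP-1B+/- 2.

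Rab30, another Golgi Rab, had the widest span of all kept members. It had 14.3 and 2.15 under the AP-1B-/- label and 4.52 and 8.17 under the AP-1B+/- label. AP-1B-/- 1 was 6.64 times AP-1B-/- 2 (5.36 times after quantile normalization), whereas the labels differed by a log2 value of -0.09 (SE 0.71). The transport Rabs between endoplasmic reticulum and Golgi spanned less. Rab1a, required for transport out of the endoplasmic reticulum, had 381 and 234 on the arrays labelled AP-1B-/-, against 298 and 315 on those labelled AP-1B+/-. Rab1b, its paralog, had 37.4 and 29.0 under the AP-1B-/- label and 27.0 and 35.3 under the AP-1B+/- label. Their groups overlapped, and their log2 differences were -0.04 and 0.09. Rab2a, which acts in retrieval from the Golgi, had 91.2 and 71.7 on the arrays labelled AP-1B-/-, against 68.6 and 96.4 on those labelled AP-1B+/-. Its 6 kept probe sets had the same sign as its log2 difference of -0.01, which was 0.04 after quantile normalization. Rab6a, the main Rab of transport from the Golgi back to the endoplasmic reticulum, had 109.5 and 82.5 under the AP-1B-/- label and 82.3 and 114 under the AP-1B+/- label. Rab18, found on lipid droplets and the endoplasmic reticulum, had 50.6 and 34.9 on the arrays labelled AP-1B-/-, against 32.6 and 50.2 on those labelled AP-1B+/-, which became 43.3 and 42.8 against 40.6 and 41.4 after quantile normalization.

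The minor isoforms Rab2b and Rab6b were close to the array median. Rab2b had 1.51 and 1.60 under the AP-1B-/- label and 1.68 and 1.95 under the AP-1B+/- label. Rab6b, the isoform known from neurons, had 1.13 and 1.46 on the arrays labelled AP-1B-/-, against 1.77 and 1.98 on those labelled AP-1B+/-. Both were lower on both arrays labelled AP-1B-/-, by log2 differences of -0.19 and -0.45 with standard errors of 0.43 each, also without overlap after quantile normalization. All 3 kept Rab2b probe sets had the same sign, but the groups overlapped on those not used. The brighter of these had 1.08 and 1.13 under the AP-1B-/- label and 0.951 and 1.83 under the AP-1B+/- label. Rab33b, a Golgi Rab that binds the autophagy protein Atg16l1, had 9.18 and 9.95 under the AP-1B-/- label and 8.18 and 12.7 under the AP-1B+/- label. Rab36 had 1.46 and 1.501 on the arrays labelled AP-1B-/-, against 1.23 and 1.84 on those labelled AP-1B+/-. For these last 2 the groups overlapped, and AP-1B+/- 2 was highest for both.

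All 6 early endosome Rabs were kept, 3 lower and 3 higher under the AP-1B-/- label, with a median log2 difference of -0.04. Rab5a, which controls fusion of early endosomes, had 44.7 and 37.9 on the arrays labelled AP-1B-/-, against 39.9 and 55.3 on those labelled AP-1B+/-. Rab5c had 19.0 and 21.8 under the AP-1B-/- label and 17.4 and 21.9 under the AP-1B+/- label. Rab5b, the third isoform, had 0.974 and 1.61 on the arrays labelled AP-1B-/-, against 1.87 and 1.75 on those labelled AP-1B+/-. Only Rab5b of these 3 had groups that did not overlap, with a log2 difference of -0.43 (SE 0.44), at signals close to the array median. It was -0.14 without AP-1B-/- 1 and -0.72 without AP-1B-/- 2. Both kept Rab5b probe sets had the same order. Rab21, which carries integrins, had 30.9 and 17.8 under the AP-1B-/- label and 18.8 and 25.5 under the AP-1B+/- label. Rab22a, of endosomal recycling, had 14.7 and 12.9 on the arrays labelled AP-1B-/-, against 11.8 and 18.3 on those labelled AP-1B+/-, with 4 of 4 kept probe sets of 1 sign.

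Rab31, which acts between the Golgi and endosomes, separated the arrays within each label. It had 9.12 and 3.08 under the AP-1B-/- label and 2.81 and 9.83 under the AP-1B+/- label. AP-1B-/- 1 was 2.96 times AP-1B-/- 2 and AP-1B+/- 2 was 3.50 times AP-1B+/- 1, and these ratios were 2.29 and 2.66 after quantile normalization. The 2 labels themselves had means of 6.10 ± 4.27 and 6.32 ± 4.96 (SD, n = 2 each). A second, dimmer probe set of Rab31 had 2.16 and 1.01 on the arrays labelled AP-1B-/-, against 0.751 and 1.89 on those labelled AP-1B+/-, with the same 2 arrays highest. Proliferation markers also had their highest sums on those 2 arrays, at 590 and 189 under the AP-1B-/- label and 177 and 291 under the AP-1B+/- label. Stroma and muscle markers summed to 32.7 and 29.4 under the AP-1B-/- label and 28.6 and 21.7 under the AP-1B+/- label. The part of these markers in the Rab31 values was not tested.

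**Figure D4:**
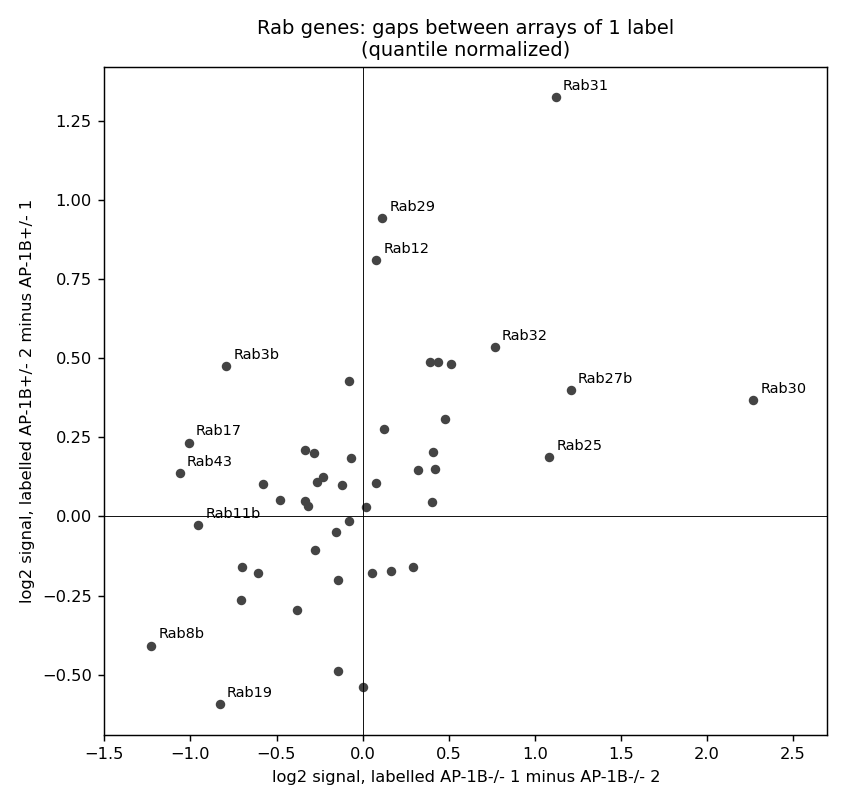
Gap between the arrays of each label for the 48 kept Rab genes after quantile normalization, as log2 signal of AP-1B-/- 1 minus AP-1B-/- 2 (horizontal) and of AP-1B+/- 2 minus AP-1B+/- 1 (vertical). Rab31 lies far out on both axes, Rab30, Rab27b and Rab25 mainly on the horizontal one, and Rab8b, Rab43 and Rab17 have AP-1B-/- 1 below AP-1B-/- 2.

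Upstream sequence is shown for Rab8b and Rab3b, lower under the AP-1B-/- label without overlap, and for Rab25 and Rab31, wide within the labels, since each has a single RefSeq start. The windows are the 250 bases before the start in the RefSeq annotation of GRCm38.p6, 5′ to 3′ on the gene's strand, and capitals mark any match, on either strand, to the CCAAT box, the GC box spelled GGGCGG, the TATA box spelled TATAAA, the E-box spelled CACGTG, the HNF4 site spelled CAAAGTCCA or the CDX site spelled TTTATGG.
Rab8b, chr9:66919706-66919955, minus strand: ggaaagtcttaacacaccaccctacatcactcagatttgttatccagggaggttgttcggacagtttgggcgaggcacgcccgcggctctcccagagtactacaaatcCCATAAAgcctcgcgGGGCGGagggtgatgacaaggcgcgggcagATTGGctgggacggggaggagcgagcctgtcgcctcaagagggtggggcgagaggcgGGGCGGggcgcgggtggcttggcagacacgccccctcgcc
Rab3b, chr4:108878820-108879069, plus strand: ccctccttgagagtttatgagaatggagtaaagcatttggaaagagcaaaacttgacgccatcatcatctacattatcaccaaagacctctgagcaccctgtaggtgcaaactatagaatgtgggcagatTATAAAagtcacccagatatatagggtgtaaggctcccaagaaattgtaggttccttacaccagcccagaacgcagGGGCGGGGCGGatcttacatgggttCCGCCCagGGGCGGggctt
Rab25, chr3:88548280-88548529, minus strand: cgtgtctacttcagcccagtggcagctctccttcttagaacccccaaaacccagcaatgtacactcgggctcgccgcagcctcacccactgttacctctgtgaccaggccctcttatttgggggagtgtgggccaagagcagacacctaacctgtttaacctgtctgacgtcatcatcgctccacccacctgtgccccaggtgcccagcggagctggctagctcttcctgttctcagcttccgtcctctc
Rab31, chr17:65772753-65773002, minus strand: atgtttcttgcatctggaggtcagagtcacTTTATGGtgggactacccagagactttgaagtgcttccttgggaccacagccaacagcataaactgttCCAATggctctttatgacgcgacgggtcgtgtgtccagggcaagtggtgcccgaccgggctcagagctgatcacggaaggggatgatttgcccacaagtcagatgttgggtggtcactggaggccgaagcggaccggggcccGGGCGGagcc
Of 60 such windows for 48 of the 59 Rab genes, 40 held a GC box (66.7%, against 32.7% of all 32851 windows), at a median GC content of 60.2% against 52.4%. These 48 are the Rab genes with a window, not the 48 kept by the filter, and include Rab39b and Rab42, which were not kept. A CCAAT box was in 40.0% against 33.8%, a TATA box in 6.67% against 12.4%, and an E-box in 8.33% against 6.02%. The CDX letters were in 4 windows (6.67% against 2.43%), those of Rab15, Rab31, Rab7 and Rab8b, and the HNF4 letters in 0 of 60 (0.384% of all windows). Adjoining GC boxes overlap in Rab3b, and the Rab25 window held none of the 6 motifs. A match is a description of letters, and the arrays do not tell which start was used.

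Of 8 Rabs of late endosomes, lysosomes and related organelles, 7 were kept, 4 lower and 3 higher, with a median log2 difference of -0.05. All 7 had AP-1B-/- 1 and AP-1B+/- 2 as the 2 highest arrays on deposited values, and 4 of them did after quantile normalization. Rab7, the main Rab of late endosomes and lysosomes, had 75.8 and 50.7 on the arrays labelled AP-1B-/-, against 50.6 and 81.7 on those labelled AP-1B+/-. Rab9, which returns mannose 6-phosphate receptors to the Golgi, had 47.4 and 30.3 under the AP-1B-/- label and 34.5 and 63.3 under the AP-1B+/- label. After quantile normalization both Rab9 values labelled AP-1B-/- lay below both labelled AP-1B+/-, with 40.6 and 37.2 under the AP-1B-/- label and 43.0 and 52.2 under the AP-1B+/- label. Rab24, linked to autophagy, had 18.2 and 16.2 on the arrays labelled AP-1B-/-, against 15.4 and 27.1 on those labelled AP-1B+/-. Rab29, a partner of the kinase Lrrk2, had 4.83 and 3.50 under the AP-1B-/- label and 2.40 and 6.07 under the AP-1B+/- label. Its AP-1B+/- arrays were 2.53-fold apart, and 2.03-fold after quantile normalization. Rab32, known from melanosomes and mitochondria, had 8.70 and 3.74 on the arrays labelled AP-1B-/-, against 3.89 and 7.78 on those labelled AP-1B+/-, more than 2-fold apart under the AP-1B-/- label at 2.32 times. Rab38, its melanosomal relative, had 1.96 and 1.93 under the AP-1B-/- label and 1.61 and 2.00 under the AP-1B+/- label, close together on all arrays. Rab7b, with 1.12 and 0.684 on the arrays labelled AP-1B-/-, against 0.850 and 1.32 on those labelled AP-1B+/-, was the kept member nearest the filter.

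Of 8 Rabs of regulated secretion, 5 were kept, 3 lower and 2 higher, with a median log2 difference of -0.08. Rab3b, which binds secretory vesicles in neurons and endocrine cells, had 0.343 and 0.852 under the AP-1B-/- label and 1.33 and 2.07 under the AP-1B+/- label. Both arrays labelled AP-1B-/- were below the array median and both labelled AP-1B+/- above it, with means of 0.598 ± 0.360 and 1.70 ± 0.526 (SD, n = 2 each). The log2 difference of -1.17 (SE 0.50) was the most negative among kept Rab genes (limma, unadjusted p = 0.0356, adjusted p = 0.999868). Since only the arrays labelled AP-1B+/- carried Rab3b past the filter, it had to differ between the labels, and its rank and p are a description. The log2 difference was -0.76 with a pseudocount of 1. Without AP-1B-/- 1 it was -0.76 and without AP-1B-/- 2 it was -1.58. Enteroendocrine markers, all 12 of them kept, summed to 150 and 141 on the arrays labelled AP-1B-/- and to 193 and 211 on those labelled AP-1B+/-. Of the 12, 11 were lower by label and 7, all lower, had groups that did not overlap, beside 10.9% of all kept genes lower in that way. Chga, a secretory granule protein, had 8.80 and 9.21 under the AP-1B-/- label, against 13.0 and 13.5 under the AP-1B+/- label. Chgb had 68.2 and 53.9 against 83.1 and 87.2 in that order. The part of these markers in the Rab3b values was not tested.

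Rab27a, which releases lytic granules in cytotoxic T cells and melanosomes in pigment cells, had 4.25 and 3.39 on the arrays labelled AP-1B-/-, against 5.72 and 5.31 on those labelled AP-1B+/-. Its groups did not overlap, with a log2 difference of -0.50 (SE 0.45). A dimmer Rab27a probe set had the opposite order, with 1.22 and 1.07 on the arrays labelled AP-1B-/-, against 0.827 and 0.877 on those labelled AP-1B+/-, and the mean of both gave a log2 difference of -0.09. The T cell markers, of which Cd2 and Cd8b1 were below the filter, had a sum on AP-1B-/- 1 that was 2.88% of that on AP-1B+/- 1, and on AP-1B-/- 2 those markers summed to 289. After quantile normalization Rab27a had 3.80 and 3.79 under the AP-1B-/- label and 6.96 and 4.70 under the AP-1B+/- label. The part of T cells in the Rab27a values was not tested.

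Rab27b, the isoform of exocrine and goblet cell secretion, had 15.4 and 4.79 under the AP-1B-/- label and 6.21 and 11.9 under the AP-1B+/- label. It was highest on AP-1B-/- 1, at 3.23 times AP-1B-/- 2 (2.39 times after quantile normalization), and of its 4 kept probe sets 3 shared the order with AP-1B-/- 1 and AP-1B+/- 2 highest. Rab3d, a Rab of exocrine granules, had 10.9 and 6.25 on the arrays labelled AP-1B-/-, against 5.88 and 9.33 on those labelled AP-1B+/-, and all 3 of its kept probe sets had the same 2 arrays highest. Pancreatic acinar markers summed to 35.3 and 124 on the arrays labelled AP-1B-/-, against 15.0 and 44.9 on those labelled AP-1B+/-, and 9 of 10 were highest on AP-1B-/- 2. Paneth and goblet markers summed to 2550 and 1770 under the AP-1B-/- label and 2600 and 2360 under the AP-1B+/- label. Among them Agr2, a secretory pathway chaperone of goblet cells, had 172 and 54.0 under the AP-1B-/- label and 55.3 and 119.6 under the AP-1B+/- label, and Spink4 had 341 and 121 against 120.0 and 244. These were the only 2 of the 10 highest on AP-1B-/- 1, while 6 were highest on AP-1B+/- 1 and 8 were lower by label. Muc2 had 107 and 107 under the AP-1B-/- label, against 113 and 147 under the AP-1B+/- label. The part of these markers in the Rab27b and Rab3d values was not tested. Rab3a, of synaptic vesicles, had 16.1 and 14.9 under the AP-1B-/- label and 14.8 and 18.2 under the AP-1B+/- label, within 1.23-fold of each other on this probe set. A much dimmer kept Rab3a probe set spanned more, with 1.29 and 1.69 under the AP-1B-/- label and 0.791 and 2.205 under the AP-1B+/- label. Its log2 difference was 0.11, of opposite sign to the -0.08 of the probe set used.

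Of 10 other members, 5 were kept, and all 5 had a lower mean under the AP-1B-/- label, with a median log2 difference of -0.16 and groups that overlapped. Rab19 had 4.39 and 6.08 on the arrays labelled AP-1B-/-, against 6.49 and 5.88 on those labelled AP-1B+/-. Rab20, known from phagosomes, had 3.20 and 3.75 under the AP-1B-/- label and 3.13 and 4.11 under the AP-1B+/- label. Rab23, an inhibitor of Hedgehog signalling, had 3.34 and 2.15 on the arrays labelled AP-1B-/-, against 2.28 and 3.99 on those labelled AP-1B+/-. Rab28, a Rab of cilia, had 12.4 and 8.57 under the AP-1B-/- label and 9.61 and 12.3 under the AP-1B+/- label. Rab40c, which carries a SOCS box for ubiquitin ligase assembly, had 11.5 and 9.94 on the arrays labelled AP-1B-/-, against 9.51 and 15.2 on those labelled AP-1B+/-. Of these 5, Rab19 alone had AP-1B-/- 2 and AP-1B+/- 1 as its 2 highest arrays, and AP-1B-/- 1 was its lowest.

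The 11 Rab genes that did not pass the filter were Rab3c, Rab9b, Rab26, Rab33a, Rab34, Rab37, Rab39, Rab39b, Rab40b, Rab42 and Rab44. Their means over the arrays lay below 0.983. Without the filter they were tested too, and 0 of all 59 were called (limma). Rab37, a Rab of mast cell granules, was the nearest to the filter, with 0.255 and 0.948 under the AP-1B-/- label and 1.26 and 1.24 under the AP-1B+/- label. The 7 mast cell markers, 4 of them below the filter, summed to 7.74 and 5.64 on the arrays labelled AP-1B-/-, against 11.6 and 12.1 on those labelled AP-1B+/-, and their part in the Rab37 values was not tested. Rab26, a Rab of exocrine granules, had 0.0810 and 0.222 on the arrays labelled AP-1B-/-, against 0.104 and 0.0890 on those labelled AP-1B+/-. The groups did not overlap for Rab34 and Rab37, lower under the AP-1B-/- label, and for Rab42 and Rab44, higher, all with means below the filter. The share over all genes below the filter is not given, and nothing is read from these genes.

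Probe sets of 1 gene did not always give the same answer. Of 27 Rab genes with several kept probe sets, 15 had the same sign by label on all of them, and 14 had the same 2 highest arrays on all of them.

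The regulators of the Rab cycle were also compared by label, and 0 were called in any of the 4 lists (limma, lowest adjusted p = 0.999868). At an unadjusted p under 0.05 there were also 0, beside 0.777% of all genes. Of 47 kept GEF genes, 17 were higher and 30 lower under the AP-1B-/- label, with a median log2 difference of -0.10, and groups did not overlap for 2 higher and 8 lower, beside 5.51% and 10.9% of all kept genes. Rab3il1, a GEF of Rab8, had 1.39 and 1.25 under the AP-1B-/- label and 0.693 and 0.805 under the AP-1B+/- label. Dennd1a, a GEF of Rab35, had 2.699 and 2.07 on the arrays labelled AP-1B-/-, against 1.76 and 1.92 on those labelled AP-1B+/-. Both were higher on both arrays labelled AP-1B-/-, and Rab3il1 passed the filter only through those arrays. Among the lower GEFs without overlap, Dennd5b had 7.36 and 8.55 under the AP-1B-/- label and 12.8 and 12.2 under the AP-1B+/- label. Dennd1b, another GEF of Rab35, had 17.6 and 19.5 on the arrays labelled AP-1B-/-, against 24.0 and 28.5 on those labelled AP-1B+/-. Trappc9, a subunit of the TRAPP tether, had 5.03 and 5.06 under the AP-1B-/- label and 5.88 and 8.54 under the AP-1B+/- label. These 3 had the most negative log2 differences of the 8, at -0.63, -0.49 and -0.47.

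Of 34 kept genes listed as GAPs, 8 were higher and 26 lower, with a median log2 difference of -0.14, and groups did not overlap for 0 higher and 6 lower, beside the same 5.51% and 10.9%. Whether each listed gene acts as a GAP of a Rab was not tested. Tbc1d24 had 3.04 and 5.28 on the arrays labelled AP-1B-/-, against 7.15 and 7.02 on those labelled AP-1B+/-. Tbc1d8 had 2.01 and 2.62 under the AP-1B-/- label and 3.84 and 3.37 under the AP-1B+/- label. Rabgap1l had 9.26 and 9.58 on the arrays labelled AP-1B-/-, against 11.5 and 14.8 on those labelled AP-1B+/-. These 3 had log2 differences of -0.77, -0.58 and -0.46 with standard errors of 0.48, 0.43 and 0.52. The list of the membrane cycle had 12 kept genes: Gdi2, Chm, Chml, Rabggta, Rabggtb, Rabac1 and Yipf1 to Yipf6. Gdi2 was the only GDI gene kept, so the list is not one of extraction and prenylation genes alone. The median of the list was -0.04, with 4 higher and 8 lower and 0 without overlap. Of 54 kept effector genes, 21 were higher and 33 lower, with a median of -0.09, and groups did not overlap for 0 higher and 8 lower, again beside 5.51% and 10.9% of all kept genes. Without AP-1B+/- 2 all 4 list medians were positive, at 0.16 for GEFs, 0.19 for GAPs, 0.25 for the membrane cycle and 0.20 for effectors. Without AP-1B-/- 2 they were 0.07, -0.08, 0.10 and 0.08 in the same order, and without AP-1B-/- 1 or AP-1B+/- 1 all were negative, at -0.18 or below. After quantile normalization all 4 were negative without any 1 array, except the effector median of 0.06 without AP-1B-/- 1.

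Myo5b, the myosin Vb motor that binds Rab8a, Rab11a and Rab25 and whose loss in people causes microvillus inclusion disease, had 53.5 and 70.4 under the AP-1B-/- label and 72.9 and 82.8 under the AP-1B+/- label. Its log2 difference was -0.34 (SE 0.51). Sytl2, a synaptotagmin-like effector of Rab27, had 6.88 and 4.76 on the arrays labelled AP-1B-/-, against 7.96 and 8.19 on those labelled AP-1B+/-, with a log2 difference of -0.47 (SE 0.49). Inpp5b, a phosphoinositide phosphatase that binds Rab5, had 21.5 and 31.4 under the AP-1B-/- label and 36.3 and 33.6 under the AP-1B+/- label, with a log2 difference of -0.42 (SE 0.55). For each of these 3, both arrays labelled AP-1B-/- lay below both labelled AP-1B+/-, and none passed the test. After quantile normalization the groups of Myo5b and Inpp5b overlapped, as did those of Dennd1b and Tbc1d24 among the named GEFs and GAPs.

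**Figure D5:**
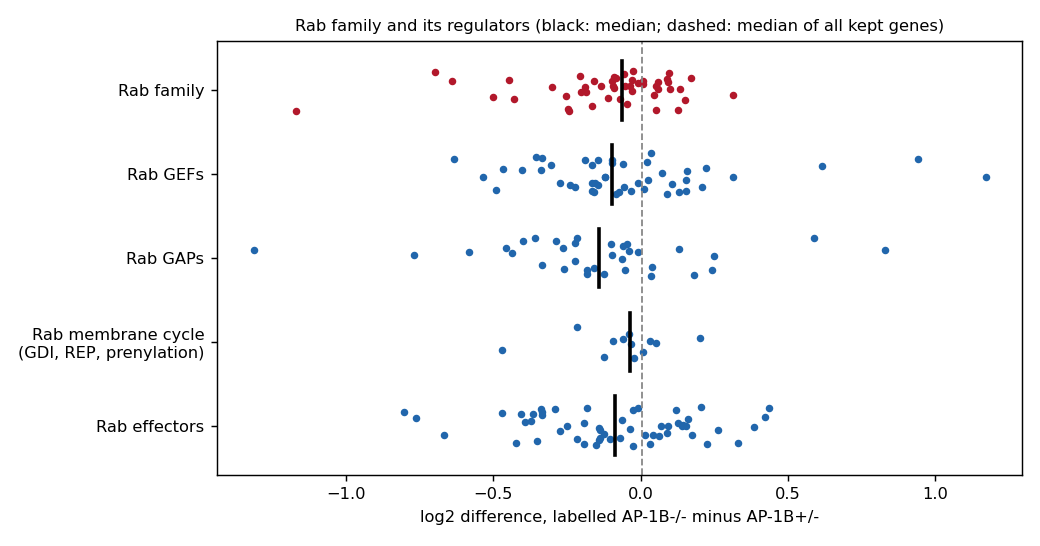
log2 difference, arrays labelled AP-1B-/- minus those labelled AP-1B+/-, for the kept genes of the Rab family and of 4 lists of Rab regulators; black bars are medians and the dashed line is the median of all kept genes. The 5 medians lie between -0.14 for GAPs and -0.04 for the membrane cycle, left of the median of 0.00 for all kept genes.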

How the data were processed

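RNA of small intestinal epithelial cells was measured on 4 arrays, 2 labelled AP-1B-/- and 2 labelled AP-1B+/-. The deposited table holds 1 intensity per probe set and array for 45037 probe sets, made with MAS5 per the submitters' processing notes. The MAS5 version and settings are not given in the sources used here. Each deposited array has a median near 1, a rescaling seen in the values only. No detection calls or scan dates were used, so dim signals cannot be told from background. With 4 arrays, precision is limited by their number. Any pair of arrays shared equal values at 0.144% of probe sets or fewer.

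Gene names came from the platform's annotation, and probe sets of several genes were left out. All 59 Rab symbols were in the RefSeq table of GRCm38.p6. Values were transformed as log2(value + 0.321), the 25th percentile of all values, which understates the fold of dim genes. Probe sets whose mean reached 0.983 (22519, of which 19642 were named for 1 gene) entered limma 3.58.1 under R 4.3.3 (lmFit, eBayes with an intensity trend, Benjamini-Hochberg adjustment, threshold 0.05). The fit was tested on simulated data drawn independently for each array. That setting lacks the deviations shared between the real arrays, so it does not cover them. Differences are AP-1B-/- minus AP-1B+/-.

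Named genes were the Rabs of polarised trafficking, members with groups that do not overlap, the 12 with the widest range, others where their role is described, and up to 3 regulators per list and direction with groups that do not overlap. Members and lists were chosen with earlier results of these data known. Alternatives were other pseudocounts, filters, scalings and fits, the replicate number as a block, 1 array left out in turn and averaging over the probe sets of 1 gene.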

Additional observations from a re-analysis of the deposited data

How the results depend on the processing

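With the alternatives run, 0 Rab genes were called in each. Over all probe sets the count was 0 under the other pseudocount, no filter, the other scalings, the fits without trend or with a robust step and the replicate block, and 1 (a lower one, not a Rab) among the brightest 25%. With 1 array left out it ranged from 0 to 240, the highest without AP-1B-/- 2 and 24 without AP-1B-/- 1, but 0 each time after quantile normalization, an alternative chosen after seeing the data. With no filter 59 members entered, and among the brightest 25% there were 35, with no share over all genes given for either. The number of Rab genes without overlap between labels, 7, was 11 and 2 (Rab8b and Rab43) there, and nothing is read from that change. With 1 array left out, a looser condition, it ranged from 21 to 32, beside 50.8% to 68.5% of all kept genes, and after quantile normalization it was 33 without AP-1B-/- 1, 36 without AP-1B-/- 2, 23 without AP-1B+/- 1 and 22 without AP-1B+/- 2, beside 59.2%, 77.7%, 48.0% and 60.5%. The median log2 difference of the Rab genes, -0.06, lay between -0.09 and -0.05 with all 4 arrays, and between -0.40 (without AP-1B+/- 1) and 0.21 (without AP-1B+/- 2) with 1 left out. After quantile normalization that range was -0.16 to -0.02. With 1 array left out the effector median ranged from -0.37 to 0.20, the GAP median from -0.39 to 0.19, the GEF median from -0.36 to 0.16 and the membrane cycle median from -0.32 to 0.25, and the cause was not tested. After quantile normalization these ranges were -0.12 to 0.06, -0.30 to -0.02, -0.17 to -0.03 and -0.15 to -0.03. The sign of the log2 difference changed under at least 1 alternative for 41 of 48 Rab genes, for 12 of them with all 4 arrays kept, and for 0 of the 7 without overlap, whose sign that choice fixes. The replicate block gave 0 calls and the same Rab median, -0.06, and changed no call. On deposited values, arrays sharing a replicate number deviated in opposite directions from their label means (Pearson r = -0.51 over kept probe sets, which are not independent). AP-1B-/- 1 and AP-1B+/- 2 had the higher upper quartiles on that scale, and the part of this in r was not tested. The numbers were not taken as pairs, although Xist separated replicate 1 from replicate 2 in both labels. A crossed block chosen after seeing the data also gave 0 calls.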
